A study of Mus musculus with 15 samples.

Results

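The cytosolic ribosomal protein genes encode the proteins of the large (RPL) and small (RPS) ribosomal subunits outside mitochondria. They were taken as every table row with an RPL or RPS symbol of the standard form, together with RPLP0, RPLP1, RPLP2 and RPSA, which gave 84 of the 56967 gene rows used. Of these, 77 are core genes, 46 of the large and 31 of the small subunit. The other 7 are paralogs, near relatives of a core gene with a symbol ending in L or L1: RPL3L, RPL7L1, RPL10L, RPL22L1, RPL26L1, RPL39L and RPS27L. A filter on low counts kept 83 members among 19051 genes tested, and RPL10L, a testis-expressed relative of RPL10, was lost because it had no counts in any library.

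The ribosome carries a single copy of nearly every one of these proteins, so their genes are transcribed at high and balanced levels in growing cells. Their mRNAs are short and begin with a run of pyrimidines, the 5′ terminal oligopyrimidine (TOP) motif, through which the mTOR pathway and the RNA-binding protein LARP1 control their translation and stability. Some proteins also act off the ribosome: RPL5 and RPL11, which join the 5S rRNA, bind MDM2 and so link ribosome assembly to p53.

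The series holds 15 mRNA libraries in 5 groups of 3. By the labels all came from MDA-MB-468, an established basal-like breast carcinoma line. One group received a control hairpin (sh_NC, NC here), 2 received short hairpin RNAs against SHCBP1 (shSHCBP1_1 and shSHCBP1_2) and 2 received short hairpin RNAs against TMEM45A. The TMEM45A groups are called set 2 and set 4 after the table columns. Set 4 was taken as the labels' shTMEM45A_1 by elimination, and which stated hairpin each set carried could not be settled. NC and the shSHCBP1 libraries stand in one count table and the shTMEM45A libraries in another, so in every comparison of shTMEM45A with NC the table and the target cannot be told apart.

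Libraries held 13748138 to 16460265 counts. Levels below are CPM, a gene's counts relative to its library's total after scaling by trimmed means of M values (TMM), as mean ± SD of 3 libraries where an SD is given. SHCBP1 was not lower in the libraries labelled shSHCBP1: its level was 41.3 to 46.2 CPM in NC, 46.3 to 48.5 CPM in set 1 and 42.9 to 44.9 CPM in set 2. TMEM45A was 24.2 to 28.0 CPM in NC and 15.7 to 19.9 CPM in the shTMEM45A libraries, with no overlap. Of 21 markers of the labelled line, 9 passed the filter, and KRT5, KRT6B, KRT16 and KRT23 were at 0 in all libraries. The summed marker level was 166 to 169 CPM in NC, 176 to 192 CPM with shSHCBP1 and 323 to 370 CPM with shTMEM45A. All 12 genes of a neurofilament and kidney-line list passed the filter, with summed levels of 2892 to 3064 CPM in NC, 2519 to 2672 CPM with shSHCBP1 and 3199 to 3909 CPM with shTMEM45A. Of 8 leukocyte markers 4 passed, with PTPRC at 0, and of 8 fibroblast markers 2 passed, with FAP at 0. Summed leukocyte levels were 6.64 to 7.97 CPM in NC, 6.41 to 9.83 CPM with shSHCBP1 and 9.80 to 16.3 CPM with shTMEM45A. Summed fibroblast levels were 46.4 to 49.5 CPM in NC, 46.9 to 52.7 CPM with shSHCBP1 and 29.7 to 34.8 CPM with shTMEM45A. The part of these differences in the results below was not tested, and in bulk RNA a change in the cells present and a change in RNA per cell cannot be told apart.

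The members took up a smaller share of all counts in the libraries labelled shSHCBP1 than in NC, and a far larger share in the shTMEM45A libraries. In NC they held 10.2% ± 0.161 (SD, n = 3) of a library's counts, from 10.0% to 10.3%. With shSHCBP1_1 the share was 9.18% ± 0.147, and with shSHCBP1_2 it was 8.64% ± 0.0943. Set 4 of shTMEM45A reached 19.9% ± 0.271 and set 2 reached 19.8% ± 0.205. No library of either shSHCBP1 set reached the lowest NC library, and no shTMEM45A library fell below 19.5%.

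Both subunits took part. Large subunit core genes held 6.18% of counts in NC, 5.51% and 5.17% in the shSHCBP1 sets, and 11.8% to 12.2% in the 6 shTMEM45A libraries. Small subunit core genes held 3.98% in NC, 3.62% and 3.43% in the shSHCBP1 sets, and 7.72% in each shTMEM45A set. The ratio of large to small subunit counts was 1.550 to 1.555 in NC and 1.501 to 1.526 across the 6 shSHCBP1 libraries, all below NC. In the shTMEM45A libraries the ratio ran from 1.542 to 1.579 and overlapped NC.

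**Figure D1:**
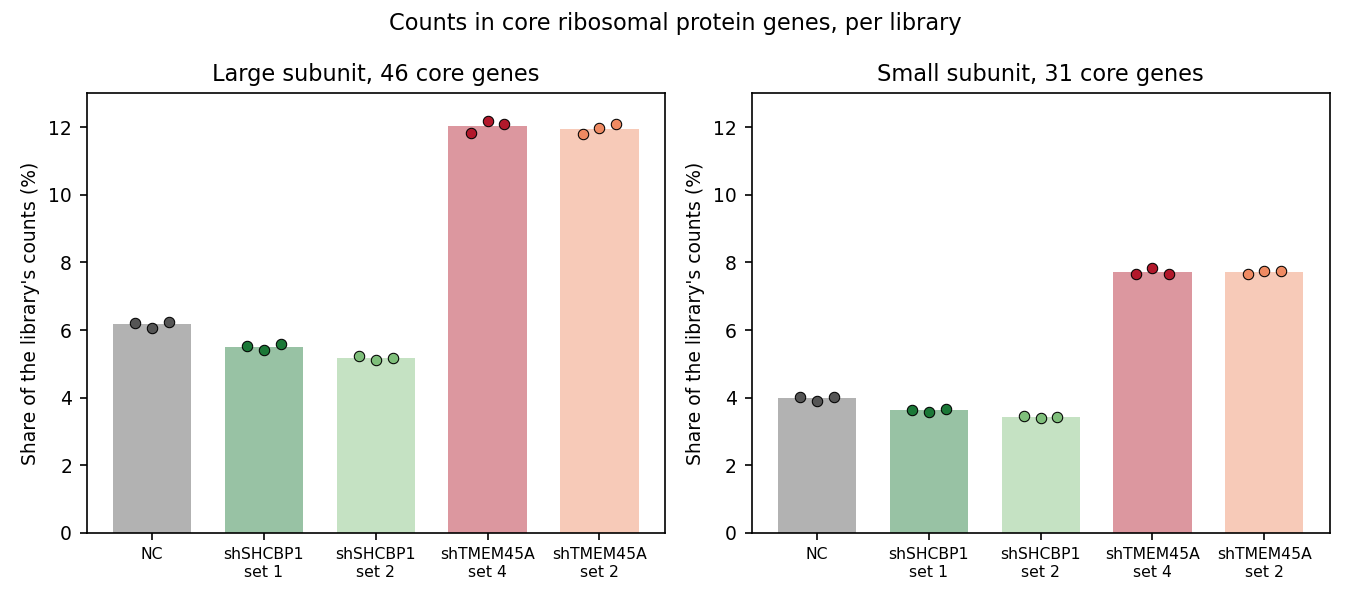
Share of each library's counts (y axis, percent) in the 46 large subunit (left) and 31 small subunit (right) core genes, by group (x axis). Points are libraries and bars are means of 3; the shSHCBP1 bars (5.51% and 5.17% for the large subunit) lie under NC (6.18%), and the shTMEM45A libraries (11.8% to 12.2%) lie far above it.

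Against NC, core ribosomal protein mRNAs were lower in the libraries labelled shSHCBP1, by a small amount that differed between genes. With shSHCBP1_1, 70 of 77 core genes fell and none rose, where 10.5% of all genes tested fell and 9.34% rose (edgeR quasi-likelihood F test, Benjamini-Hochberg adjusted p under 0.05). With shSHCBP1_2, all 77 fell, where 15.4% of all genes did. The median log2 change was -0.26 with the first hairpin and -0.38 with the second, beside 0.01 over all genes in each case. For the mean of both sets it was -0.32, with single genes between -0.58 and -0.15, all 77 past the threshold against 15.9% of all genes. All 3 libraries lay below all 3 NC libraries for 74 core genes with shSHCBP1_1 and for 77 with shSHCBP1_2, where 21.3% and 25.1% of all genes did so. RPL36A, RPS26 and RPS29 overlapped NC in the first set.

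The size of this fall depends on how libraries are scaled. Scaling to total counts moved the median of all genes up to 0.16 for the mean of both sets, and the core median to -0.16. Under total-count scaling 40 core genes fell with shSHCBP1_1 and 69 with shSHCBP1_2, and none rose. For the mean of both sets 64 fell, and those that did not pass included RPLP1 (-0.07, adjusted p = 0.193), RPS19 (-0.05, adjusted p = 0.170), RPL35 (-0.04, adjusted p = 0.385), RPL36A (-0.04, adjusted p = 0.675), RPL35A, RPL36, RPL38, RPS26, RPS28 and RPS29. The share of higher genes among all calls was 47.0% with shSHCBP1_1 under TMM, 86.0% under total-count scaling and 29.1% under relative log expression scaling. With shSHCBP1_2 it was 50.3%, 81.7% and 34.6%.

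The largest falls were in large subunit genes. RPL13A, a large subunit protein also known for silencing inflammatory transcripts, was at 2791, 2654 and 2840 CPM in NC. It was at 1941, 1968 and 1964 CPM with shSHCBP1_1, and at 1887, 1821 and 1823 CPM with shSHCBP1_2. The 6 libraries labelled shSHCBP1 lay well below the 3 NC libraries, and the mean of both sets fell by 0.54 on the log2 scale (SE 0.03, adjusted p = 8.39e-15). RPL3, which lines the peptidyl transferase centre, fell by 0.49 (SE 0.02, adjusted p = 2.22e-15) from 3670 to 3810 CPM in NC to 2556 to 2785 CPM. RPL7A fell by 0.51 (SE 0.03). RPL17, at the mouth of the peptide exit tunnel, had the largest change, from 59.3 to 63.1 CPM in NC to 43.6 to 47.0 and then 32.4 to 42.1 CPM, and fell by 0.58 (SE 0.08, adjusted p = 6.42e-07).

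The smallest changes included RPS26, RPS29, RPL35 and RPL36A. RPS26, which contacts mRNA near the exit channel of the small subunit, was at 303 to 323 CPM in NC, 270 to 306 CPM with shSHCBP1_1 and 266 to 278 CPM with shSHCBP1_2, a fall of 0.15 for the mean (SE 0.04, adjusted p = 0.00547). RPS29, a zinc-binding protein of the small subunit head, was at 256 to 282 CPM in NC and 213 to 275 CPM across the 6 libraries labelled shSHCBP1. Its log2 change was -0.15 (SE 0.06, adjusted p = 0.0472), which did not pass when any 1 of 6 libraries was left out (adjusted p = 0.226 without NC replicate 1). Under total-count scaling the log2 changes of RPS26 and RPS29 were 0.01 and 0.00, neither past the threshold. RPL35 fell by 0.20 (SE 0.04) and RPL36A by 0.20 (SE 0.07). The call of RPL36A was lost when any 1 of 6 libraries was left out.

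The mRNAs of the stalk proteins, which recruit elongation factors to the ribosome, fell by 0.40 (RPLP0), 0.22 (RPLP1) and 0.26 (RPLP2) on the log2 scale. RPL5 and RPL11, the partners of 5S rRNA, fell by 0.43 and 0.38. RPS6, the substrate of S6 kinase, was at 1712 to 1761 CPM in NC, 1425 to 1458 CPM with shSHCBP1_1 and 1314 to 1379 CPM with shSHCBP1_2, and fell by 0.32 (SE 0.03, adjusted p = 9.84e-10). All 8 genes of proteins around the exit tunnel fell, with a median of -0.30, and all 14 of the small subunit head, with a median of -0.29. All 77 core genes were lower, where 15.9% of all genes were, so any list of core genes gives such a count. A chosen list of 9 core genes among those mutated in Diamond-Blackfan anaemia, an inherited failure of red cell production, also fell, from RPL5 at -0.43 to RPS26 at -0.15. RPS19, the most often mutated of them, fell by 0.20 (SE 0.03; not past the threshold under total-count scaling), RPS7 by 0.26 and RPS24 by 0.29.

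The second hairpin gave the lower values of the pair in all 77 core genes, with a median log2 difference of -0.11 from the first. Of these, 8 were past the threshold, where 0.336% of all genes were lower: among them RPL6, RPL7A, RPL32, RPL37A, RPS3, RPS4X and RPS27, which were picked out by that call. RPL7A differed by -0.18 (SE 0.03, adjusted p = 0.00208). Libraries of the second set lay wholly below the first for 63 core genes, where 11.7% of all genes did. The count differed between fits: it was 66 when only these 6 libraries were fitted, 33 with DESeq2, and 3 to 5 when any 1 of the 6 was left out. SHCBP1 itself was 42.9 to 44.9 CPM in the second set and 46.3 to 48.5 CPM in the first. The second set thus lay within the NC range of SHCBP1 given above and the first lay above it, so neither was lower than NC.

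Setting the library size to the summed core counts asks which members moved against the pool of ribosomal protein mRNAs. For the mean of both shSHCBP1 sets, 7 core genes were lower than the pool, where 1.51% of all genes were, and 16 were higher, where 56.2% were. The other 54 did not pass the threshold. RPL13A stood 0.19 below the pool (SE 0.03, adjusted p = 9.06e-07) and RPL7A 0.16 below it, while RPS26 stood 0.20 above it and RPS19 0.15 above it. The 23 calls came down to 15 without NC replicate 1. Between the 2 hairpins, none of the 77 core genes passed edgeR's adjusted threshold against the pool, where 6.21% of all genes did, and 3 had an unadjusted p under 0.05.

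**Figure D2:**
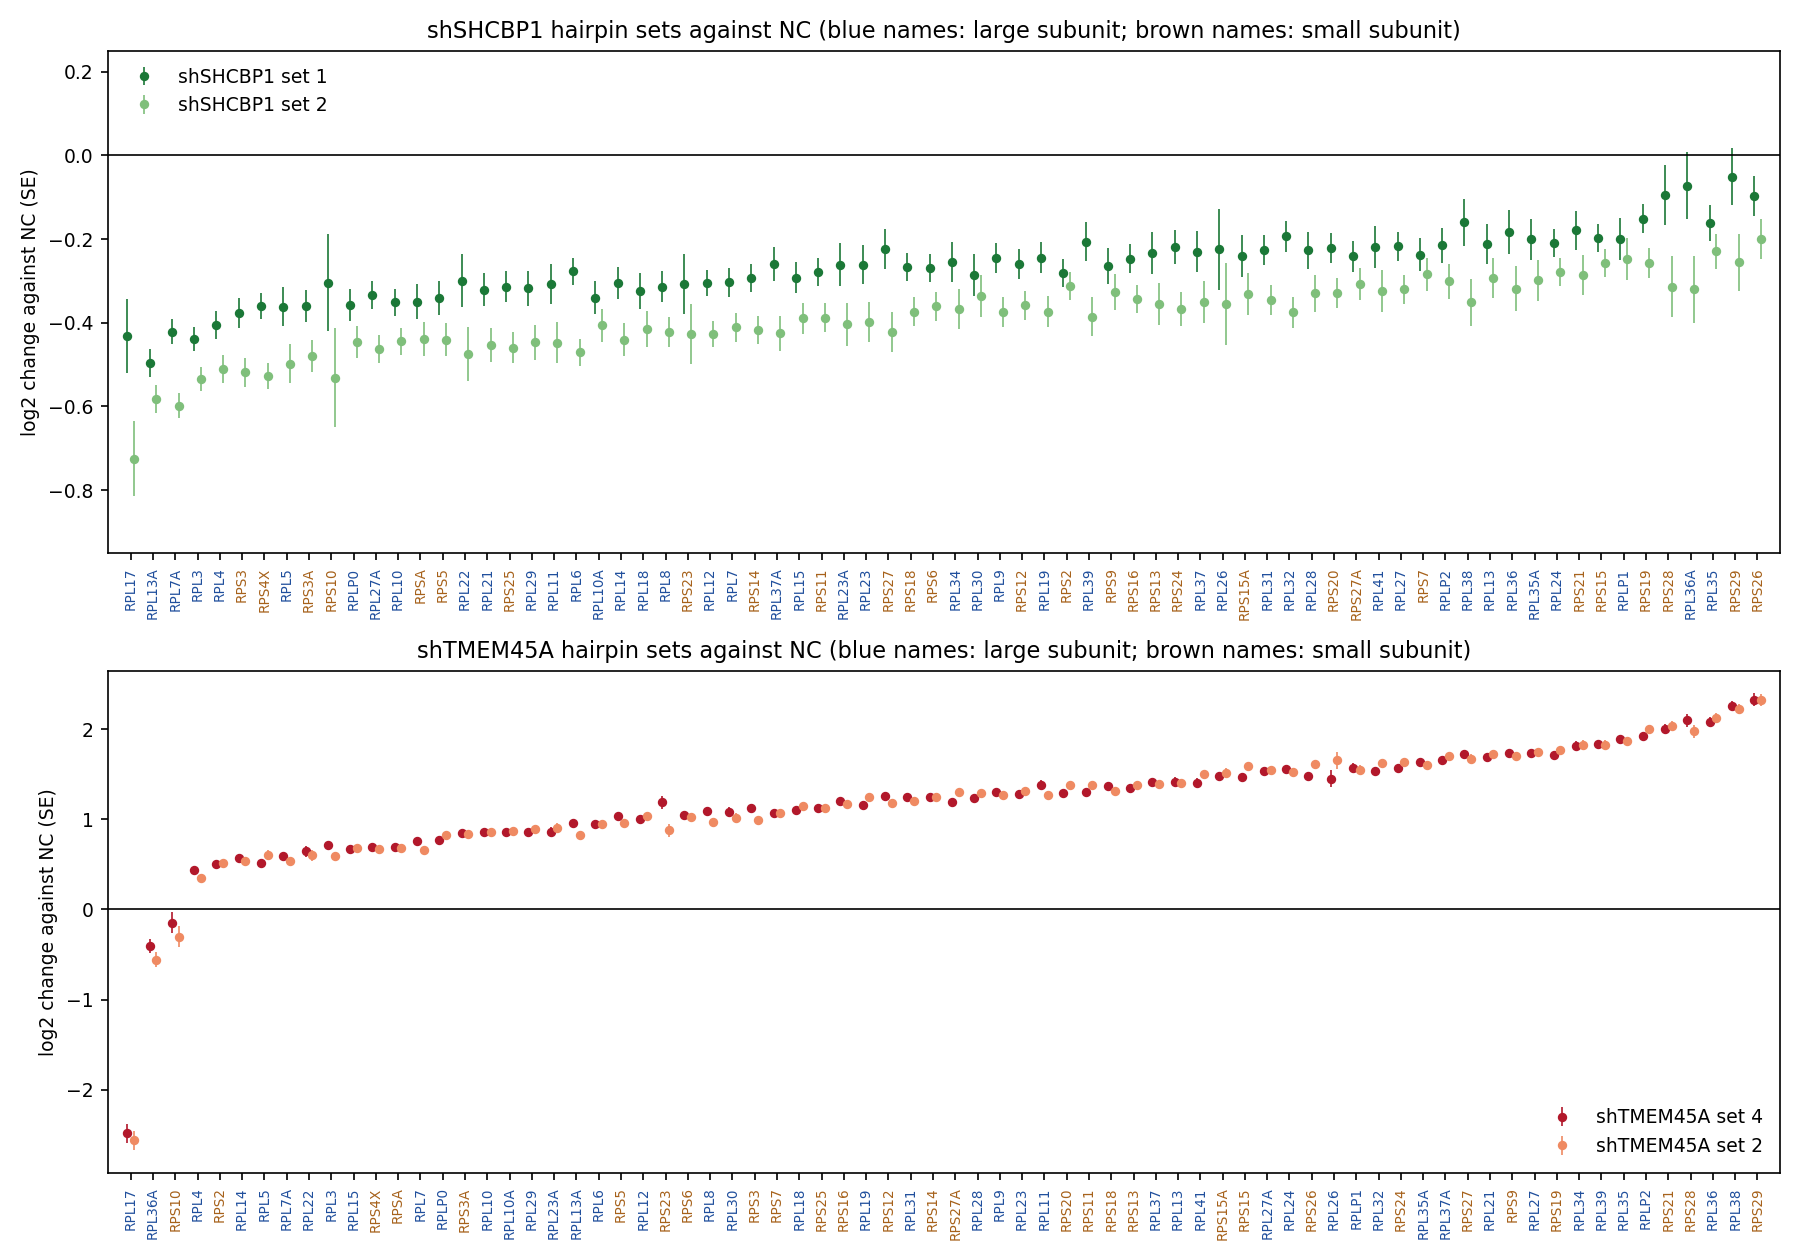
Log2 change against NC (y axis) of 74 core genes (x axis, sorted by the mean of both sets) for the shSHCBP1 sets (top) and the shTMEM45A sets (bottom); points are estimates and bars are SE. The shSHCBP1 values lie between -0.72 and -0.05, whereas the shTMEM45A values run from -2.56 to 2.33 with 3 genes below 0.

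In the shTMEM45A libraries core ribosomal protein mRNAs were much higher than in NC. In set 4, 73 of 77 core genes were higher, where 35.6% of all genes tested were, and 3 were lower, where 38.9% were. In set 2, the counts were 73 and 4, beside 36.1% and 39.8% of all genes. For the mean of both sets 73 were higher against 37.3% of all genes and 4 lower against 41.3%, with a median log2 change of 1.23 over the 77 and of -0.05 over all genes. For these 73 genes, all 6 libraries lay above all NC libraries, where 31.7% of all genes did so. The 73 held under each scaling tried, and the core median was 1.04 with total-count scaling, under which the median gene moved to -0.24.

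The rise was uneven between members. RPS29 was at 282, 271 and 256 CPM in NC, at 1194, 1385 and 1481 CPM in set 4 and at 1183, 1439 and 1433 CPM in set 2. It was 5.02-fold higher for the mean of both sets (log2 2.33, SE 0.06, adjusted p = 5.69e-24), and no library came near the NC range. RPL38, known for selective translation of homeobox mRNAs in mouse embryos, went from 422 to 478 CPM in NC to 1831 to 2240 CPM, 4.73-fold higher. RPL36 and RPS28 were 4.30-fold and 4.11-fold higher. At the low end, picked after the values were seen, RPL4 was 1.31-fold higher (2683 to 2743 CPM in NC, 3288 to 3769 CPM with shTMEM45A) and RPS2 1.42-fold higher.

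By role, the stalk genes rose to unlike degrees: RPLP0 by 0.80, RPLP1 by 1.56 and RPLP2 by 1.96 on the log2 scale. RPLP2 was at 798 to 864 CPM in NC and 3087 to 3474 CPM with shTMEM45A. RPL11 rose by 1.33 and its partner RPL5 by 0.56. RPS6 rose 2.05-fold, from 1712 to 1761 CPM to 3396 to 3699 CPM (log2 1.03, SE 0.03, adjusted p = 2.94e-23). Of the 8 exit tunnel genes 7 rose, and of the 14 small subunit head genes 12 rose. Beside these lists and the next, 73 of all 77 core genes were higher and 4 lower. The shares over all genes were 37.3% and 41.3%. Of the 9 listed Diamond-Blackfan genes 7 rose, led by RPS19 (1.74), RPL35A (1.62) and RPS24 (1.60), with RPS26 at 1.55 and RPS7 at 1.07, and the other 2, RPS10 among them, were lower.

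Between the 2 shTMEM45A sets, 6 core genes passed. The median difference of set 2 from set 4 was -0.00 on the log2 scale. RPL3, RPL8, RPL13A, RPS3 and RPS23 were lower in set 2, where 3.32% of all genes were, and RPS15 was higher, where 1.95% were. The largest of these was RPS23, a decoding-centre protein, at 581, 692 and 776 CPM in set 4 and 544, 519 and 588 CPM in set 2 (log2 -0.31, SE 0.07, adjusted p = 0.00619), groups that overlap. No core gene passed in edgeR when only the 6 shTMEM45A libraries were fitted (9 had an unadjusted p under 0.05), 8 passed in DESeq2, and 3 core genes passed without set 4 replicate 2 or replicate 3.

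Against the summed core counts, the shTMEM45A values spread widely. For the mean of both sets, 30 core genes were lower than the pool, where 73.7% of all genes were, and 40 were higher, where 9.72% were. RPS29 stood 1.18 above the pool and RPL38 1.10 above it, while RPL4 stood 0.75 below it, RPS2 0.64 below it and RPL5 0.58 below it.

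With shTMEM45A, core genes with short transcripts tended to rise more, with exceptions. Transcript lengths were taken from the mouse annotation by symbol, which gave one for 76 of 77 core genes (all but RPS3A) and for 66.7% of genes tested, so for genes other than the core this is a partial view. The median core transcript was 845 nt, with a range of 345 to 5130 nt. Across the 76 core genes, the log2 change with shTMEM45A had a Spearman correlation of -0.68 with coding length and -0.48 with transcript length. With shSHCBP1 the correlations were -0.66 and -0.58, so longer members fell more. These genes share the same libraries, and the correlations are descriptions.

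Genes outside the family also differed by length with shTMEM45A. They were cut into 5 bins of about equal size by mouse transcript length. In the shortest bin, 71.8% were higher and the median log2 change was 0.83, whereas in the longest bin the median was -0.66 and 71.0% were lower. Most core genes (69) lie in the shortest bin, with a median of 1.25. Bin 2 by rising length holds 4, with a median of 0.66. Bins 3, 4 and 5 hold 1 core gene each, higher by 1.13, 1.33 and 1.50. After subtraction of the trend of change with mouse transcript length, an alternative added after the data were seen, the core median with shTMEM45A was 0.06, with 42 genes above the trend and 34 below it. With shSHCBP1 the shortest bin of the other genes had a median of 0.02, and the core median after subtraction was -0.31, with all 76 genes below the trend. The part of transcript length in the shTMEM45A result was not tested beyond these values.

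Level was looked at in the same way. In the top 10% of genes by mean level, which holds 73 core genes, other genes had a median log2 change of -0.13 with shSHCBP1, and 52.3% of them were lower. The core genes there had a median of -0.32. With shTMEM45A, other genes in that range had a median of 0.09, with 49.5% higher, and the core genes there had a median of 1.25.

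**Figure D3:**
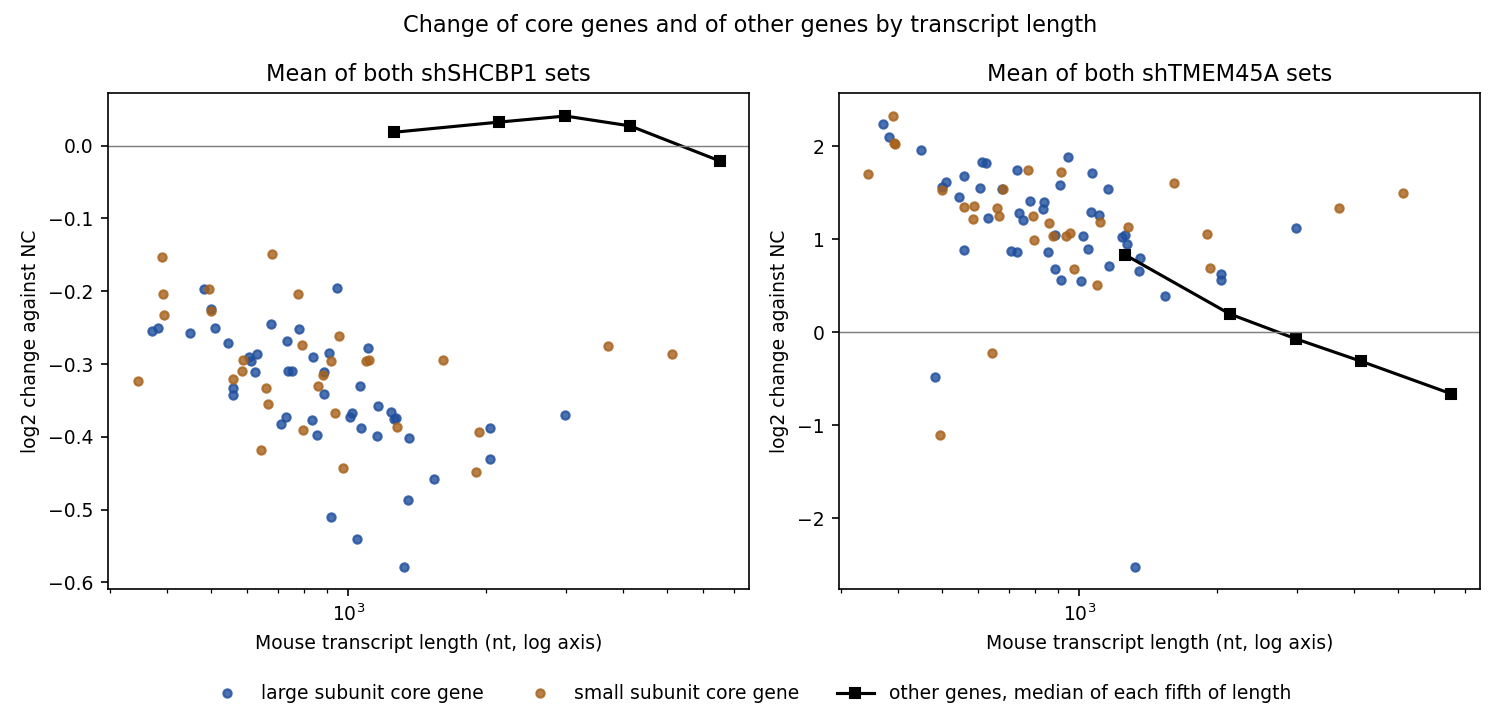
Log2 change against NC (y axis) of 76 core genes by mouse transcript length (x axis, log scale) for the mean of both shSHCBP1 sets (left) and both shTMEM45A sets (right). Squares are medians of the genes outside the family in 5 bins of length: they stay near 0 with shSHCBP1 and go from 0.83 in the shortest bin to -0.66 in the longest with shTMEM45A.

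Of the 4 core genes that were lower with shTMEM45A, RPL17, RPL36A and RPS10 are described here. RPL17 was at 59.3, 63.1 and 60.9 CPM in NC, at 13.2, 9.95 and 9.45 CPM in set 4 and at 10.9, 10.3 and 9.87 CPM in set 2. The groups were far apart, and RPL17 was 5.75-fold lower for the mean of both sets (SE of log2 0.08, adjusted p = 5.87e-22). Its log2 change lay between -2.71 and -2.09 under the alternatives tried. Pseudogene counts per 100 of RPL17 were 2.99 in NC, and 39.7 and 36.6 in shTMEM45A sets 4 and 2, so the size of its fall is uncertain. RPL36A was at 41.2 to 45.1 CPM in NC and 25.2 to 34.8 CPM with shTMEM45A, and was 1.40-fold lower (adjusted p = 3.48e-07).

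RPS10, which sits where mRNA enters the small subunit, had the weakest change of these. It was at 15.5, 19.1 and 18.6 CPM in NC, 15.1 to 16.6 CPM in set 4 and 13.1 to 16.5 CPM in set 2, with overlap. Its log2 change was -0.23 (SE 0.10, adjusted p = 0.0420). Leaving out NC replicate 2 gave an adjusted p of 0.173, and the call was also lost without NC replicate 3, set 4 replicate 3, or set 2 replicate 1 or 2. Adding the counts of its pseudogenes turned the change to 0.20, not past the threshold (adjusted p = 0.104).

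These genes were also thinly covered in NC. Per kilobase of mouse coding sequence, NC levels were 35.8 CPM for RPS10, 111 for RPL17 and 137 for RPL36A. The core genes that rose with shTMEM45A and have a mouse length started at 331 CPM per kilobase (RPL26) and had a median of 2361. A readthrough row, which joins a member to its downstream neighbour, exists for RPL17, RPL36A and RPS10, and only for these. The remaining core gene that was lower with shTMEM45A has no such row. The readthrough rows held 0 to 3 counts per group of 3 libraries for RPL17, 0 for RPL36A and 0 to 9 for RPS10. How the authors' counting shared reads between a member and an overlapping row is not given in the sources used here, so the levels of RPL17, RPL36A and RPS10 are uncertain. RPL36AL, which encodes a protein nearly identical to that of RPL36A, was at 94.4 to 112 CPM in NC and 515 to 607 CPM with shTMEM45A, 5.56-fold higher.

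Pseudogenes, which are mostly processed copies without introns, can share reads with their parents. The 1149 rows named as ribosomal protein pseudogenes held 0.523% of counts in NC, 0.482% and 0.470% in the shSHCBP1 sets, and 0.806% and 0.809% in shTMEM45A sets 4 and 2. Per 100 member counts this was 5.13 in NC, 5.25 and 5.44 in the shSHCBP1 sets, and 4.06 and 4.09 in the shTMEM45A sets. In NC, 9 core genes had over 10 pseudogene counts per 100 of their own, among them RPL7, RPL21, RPL26, RPL39, RPS2, RPS7, RPS10 and RPS28. RPS28 had 212 per 100. Some other core genes were over 10 per 100 with shTMEM45A but not in NC, RPL3, RPL17 and RPL22 among them. The split of counts between parent and copy is uncertain for all these genes. With pseudogene counts added to each parent, 77 core genes were lower for the mean of both shSHCBP1 sets and 73 higher for that of shTMEM45A.

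With shSHCBP1, 1 of the 6 tested paralogs fell, 1 rose and 4 did not pass, where 15.9% of all genes fell and 15.2% rose. RPL22L1, the relative that can stand in for RPL22, was at 130, 130 and 132 CPM in NC, at 83.8, 79.6 and 86.4 CPM with shSHCBP1_1 and at 79.9, 81.2 and 81.0 CPM with shSHCBP1_2. It fell by 0.67 (SE 0.04, adjusted p = 7.03e-13), with all 6 libraries far below NC, and stood 0.32 below the core pool. RPL39L, best known from male germ cells, was at 12.8 to 14.6 CPM in NC and at 15.8 to 20.0 CPM in the 6 libraries labelled shSHCBP1, all above NC. It rose by 0.41 (SE 0.09, adjusted p = 0.000566).

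RPL26L1, RPL7L1 and RPS27L had log2 changes of 0.12 (SE 0.06, adjusted p = 0.129), 0.11 (SE 0.04, adjusted p = 0.0531) and 0.09 (SE 0.08, adjusted p = 0.444), none past the threshold. Under total-count scaling these were 0.28, 0.26 and 0.24, all past it. RPL7L1 is a nucleolar factor and RPS27L a p53-induced relative of RPS27. RPL3L, a heart and skeletal muscle gene, was at 3.15 to 4.49 CPM in these 9 libraries and did not pass. Against the core pool RPL39L was higher by 0.76, RPL26L1 by 0.48, RPL7L1 by 0.46 and RPS27L by 0.44, all past the threshold. Measured in this way 56.2% of all genes were higher, and the median over all genes was 0.36. RPL26L1, RPL7L1 and RPS27L were thus close to the median gene. Per 100 counts of the parent gene, RPL39L went from 1.62 ± 0.0641 in NC to 2.62 ± 0.0849 and 2.65 ± 0.178, and RPL22L1 from 69.1 ± 4.93 to 54.1 ± 1.56 and 59.3 ± 0.532 (SD, n = 3).

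With shTMEM45A all 6 tested paralogs were higher than in NC, where 37.3% of all genes were. RPL22L1 was at 502, 532 and 504 CPM in set 4 and 451, 500 and 508 CPM in set 2, 3.83-fold higher than NC (log2 1.94, SE 0.05, adjusted p = 1.14e-25). RPL22 rose 1.54-fold, so RPL22L1 counts per 100 of RPL22 went from 69.1 in NC to 175 ± 20.8 and 169 ± 14.9. This ratio leaves out the RPL22 pseudogenes, which held 8.20 counts per 100 of RPL22 in NC. In shTMEM45A sets 4 and 2 they held 27.6 and 27.4, so the size of the change in the ratio is uncertain. RPL39L was 3.26-fold higher, RPL26L1 3.11-fold, RPS27L 2.44-fold, RPL3L 1.57-fold and RPL7L1 1.27-fold. Against the core pool RPL22L1 (0.79), RPL39L (0.56) and RPL26L1 (0.49) were higher, RPL7L1 (-0.80) and RPL3L (-0.49) lower, and RPS27L (0.14, adjusted p = 0.106) did not pass. Measured in this way 9.72% of all genes were higher and 73.7% lower, with a median of -1.19.

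**Figure D4:**
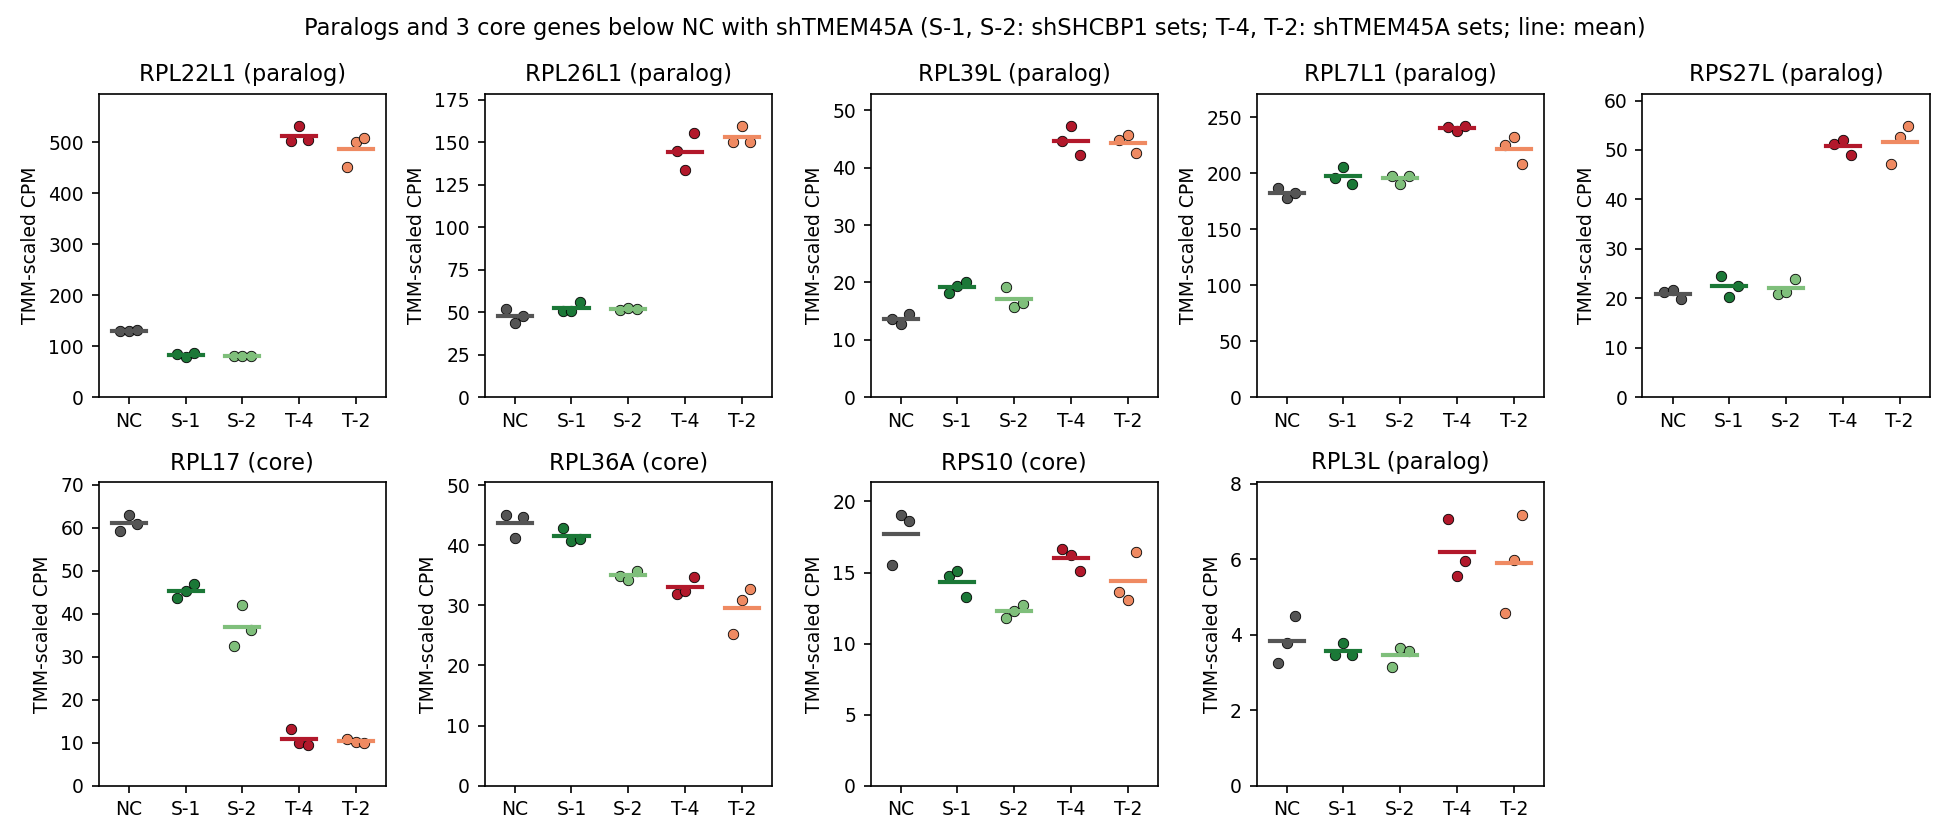
TMM-scaled CPM (y axis) per library of the 6 tested paralogs and 3 core genes below NC with shTMEM45A, by group (x axis); points are libraries and lines are means of 3. RPL22L1 is under NC in both shSHCBP1 sets and above 450 CPM in all shTMEM45A libraries, whereas RPL17 steps down from NC to about 10 CPM.

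The mRNAs of ribosomal proteins with other symbols were lower with shSHCBP1 and higher with shTMEM45A. FAU, which encodes a ribosomal protein fused to a ubiquitin-like protein, fell by 0.26 with shSHCBP1 and rose by 1.56 with shTMEM45A. RACK1, a signalling scaffold on the small subunit, fell by 0.46 and rose by 0.41. RPL36AL fell by 0.27 with shSHCBP1.

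Other TOP transcripts, most of them mRNAs of translation factors, were lower with shSHCBP1, and most were also lower with shTMEM45A. All 14 tested of 15 fell for the mean of both shSHCBP1 sets, where 15.9% of all genes did, with a median of -0.48 (EEF1G had 0 counts). Among genes outside the family in the top 10% by mean level, 52.3% were lower, with a median of -0.13. EEF1A1, which brings aminoacyl-tRNA to the ribosome, was at 11273, 10876 and 10905 CPM in NC, 7574 to 7790 CPM with shSHCBP1_1 and 6670 to 6786 CPM with shSHCBP1_2, and fell by 0.62 (SE 0.03, adjusted p = 4.29e-16). EIF4B, a cofactor of the helicase eIF4A, fell by 0.74. With shTMEM45A 10 of the 14 were lower and 4 higher, where 41.3% and 37.3% of all genes were, with a median of -0.38. EEF1A1 was at 4885 to 6010 CPM there, 2.01-fold lower than NC, and EEF2, the translocase, was 2.35-fold lower. EIF3L, an initiation factor subunit, was 8.60-fold lower, at 23.4 to 42.2 CPM against 291 to 306 CPM in NC, while TPT1 (2.35-fold) and EEF1B2 (2.13-fold) were higher. The median mouse transcript of 13 of these genes was 1939 nt, longer than that of the core, and after subtraction of the length trend their median with shTMEM45A was -0.72.

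Genes that build ribosomes did not move as a block. Of 49 biogenesis genes, 12 fell and 18 rose for the mean of both shSHCBP1 sets, where 15.9% and 15.2% of all genes did, with a median of 0.05. FBL, the rRNA methyltransferase of the nucleolus, fell by 0.38 and GNL3 by 0.34, whereas LTV1 and PNO1, which act in small subunit maturation, rose by 0.71 and 0.67. LTV1 was at 19.5 to 20.4 CPM in NC, 27.9 to 30.3 CPM in the first set and 36.5 to 38.5 CPM in the second. With shTMEM45A 12 were lower and 32 higher, where 41.3% and 37.3% of all genes were, with a median of 0.48. MRTO4, which prepares the site of the stalk, was 5.67-fold higher and LTV1 5.52-fold, whereas HEATR1 was 8.15-fold lower and NOP2 2.90-fold lower.

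Among 6 chaperones of single ribosomal proteins, 2 fell and 3 rose with shSHCBP1, and 5 rose with shTMEM45A. Of 11 RNA polymerase I genes, 4 fell and 2 rose with shSHCBP1, and 6 fell and 3 rose with shTMEM45A. For these small lists too, the shares over all genes were 15.9% lower and 15.2% higher with shSHCBP1, and 41.3% lower and 37.3% higher with shTMEM45A. Of 10 regulators, 2 fell and 3 rose with shSHCBP1, and 4 fell and 4 rose with shTMEM45A, beside the same shares over all genes. Among them EIF4EBP1, a brake on cap-dependent translation under mTOR, fell by 0.30 with shSHCBP1 and rose by 1.05 with shTMEM45A. MYC, a driver of ribosomal protein transcription, was at 162 to 168 CPM in NC, 191 to 205 and 231 to 232 CPM in the shSHCBP1 sets, and rose by 0.38 (SE 0.04, adjusted p = 5.38e-08). MYC also rose by 0.57 with shTMEM45A, and MDM2 by 0.35 and 0.71 with the 2 targets. MTOR fell by 1.06 with shTMEM45A and had a change of -0.09 with shSHCBP1, not past the threshold.

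**Figure D5:**
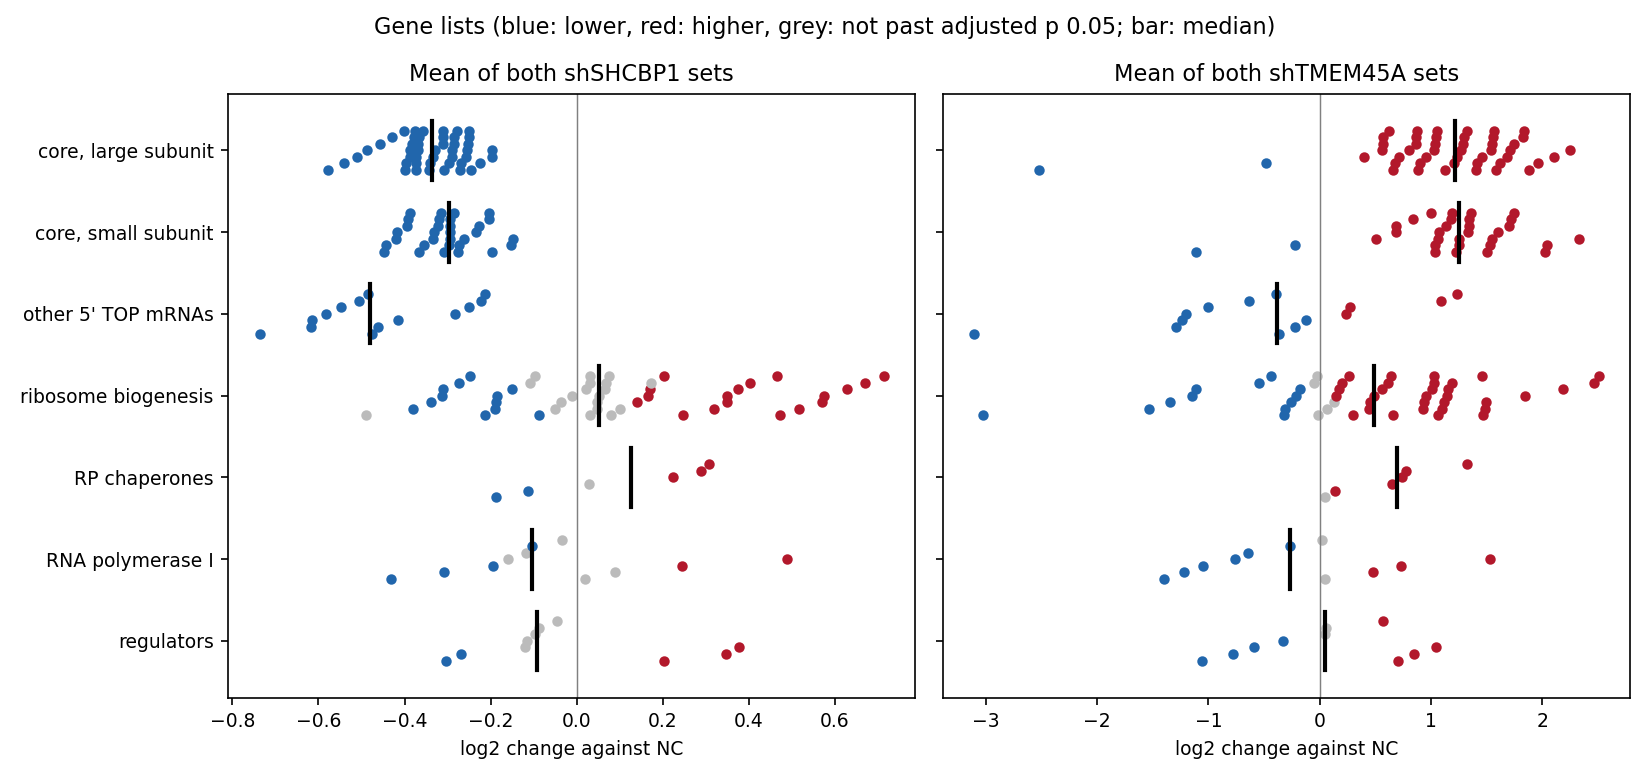
Log2 change against NC (x axis) of each tested gene of the core subunits, other TOP mRNAs, biogenesis factors, ribosomal protein (RP) chaperones, RNA polymerase I and regulators (y axis), for the mean of both shSHCBP1 sets (left) and both shTMEM45A sets (right). Blue points are lower, red higher and grey not past the threshold, and black bars are list medians; the other TOP mRNAs have a median of -0.48 on the left and -0.38 on the right, where the core subunits have medians of 1.22 and 1.25.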

How the data were processed

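Polyadenylated RNA libraries were made with a NEBNext Ultra kit, per the labels' protocols. The values are raw read counts by gene symbol, in 2 tables as deposited by the authors. This kit does not mark strand, so reads of antisense or overlapping genes cannot be told apart. No aligner or counter is named in the labels or headers. The mouse and mm10 stand in the labels and the submitters' processing notes, whereas the rows carry human symbols, so they were read as human and no human sequence or coordinate was used here. Of 58735 rows per table, 1768 rows under 200 repeated or date-like names were left out, none of them a member.

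Low genes were removed by filterByExpr (at least 10 counts, 15 in total), and TMM scaling followed. All 15 libraries entered 1 fit of 5 group means in edgeR 4.0.16 (R 4.3.3), with quasi-likelihood F tests adjusted over all 19051 genes (Benjamini-Hochberg, threshold 0.05), the source of all adjusted p-values. SE was taken as the absolute log2 change over the root of F. Fits were tested on simulated data in which few genes changed, in a single group, with equal spread in all groups. That test does not cover the wide changes and unequal spread of these data. Alternatives used DESeq2 1.42.0, other scalings, filters, left-out libraries and a replicate block. Named genes are all paralogs, the 4 largest and 4 smallest changes per comparison, core genes called against the majority, the stalk, 5S and Diamond-Blackfan members, RPS6, and the top movers of each other list. Some genes are counted but not reported here by name. Members and lists were chosen with earlier results of these data known. Whether replicate libraries stem from separate cultures is not labelled. The p-values therefore rest on library spread alone, which may be technical. This spread was unequal: a chi-square per gene between 2 libraries of a group was 1.78 to 3.24 in NC and shSHCBP1. In the shTMEM45A sets it was 3.80 to 10.0. The fit shares 1 spread per gene over all groups, so p-values may be too small for shTMEM45A and too large for shSHCBP1.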

Additional observations from a re-analysis of the deposited data

How the results depend on the processing

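Counts of core genes past the threshold against NC kept their direction and stayed within 1.5 times the reported value under the other scalings, filters, fits and left-out libraries tried, with 1 exception: total-count scaling gave 40 lower with shSHCBP1_1 in place of 70. The difference between the shSHCBP1 sets (8 core genes) was less stable: 5 under total-count scaling, 18 with no filter on low counts, 66 with only the groups compared, 33 with DESeq2, and 3 to 5 over the left-out libraries. That between the shTMEM45A sets (6) was 0 with only the groups compared, where 129 genes were called in all, and 3 to 7 over the left-out libraries. The cause was not tested. Core genes that differed from the pool with shSHCBP1 (23) were 39 with only the groups compared and 15 to 21 over the left-out libraries. With pseudogenes added, the share of counts in members was 10.7% in NC, 9.66% and 9.11% in the shSHCBP1 sets, and 20.7% and 20.6% in shTMEM45A sets 4 and 2. Members past the threshold changed sign in 3 cases: for the mean of both shSHCBP1 sets under total-count scaling, RPS26 (0.00518) and RPS29 (0.000438), and with family sums RPS10 for the mean of both shTMEM45A sets (0.20). RPL3L, not past the threshold with shSHCBP1 (-0.13), was 0.02 under total-count scaling and 0.00411 without NC replicate 3. Over 36 named members, 1284 of 1332 alternative values kept their side of the threshold and, but for those of RPL3L, their direction, 37 lost the call and 8 gained it. The calls of RPL26, RPL36A, RPS26, RPS28 and RPS29 with shSHCBP1 were each lost when at least 1 library was left out.

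Libraries with the same replicate number did not deviate together: correlations were -0.04 to 0.07 over 18 same-number pairs and -0.09 to 0.06 over 36 others, so the numbers were not taken as pairs. With a replicate block, over the libraries with a labelled number, 70 and 77 core genes were lower in the shSHCBP1 sets, 73 were higher in shTMEM45A set 2, and 7 differed between the shSHCBP1 sets; set 4 could not enter. A planned table of human transcript lengths was not used here, and mouse lengths took its place. Depth limits mainly RPL3L, RPL10L and RPS10.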

Other observations

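Among the ribosomal protein pseudogene rows, a few were picked out after their values were seen. RPL9P9 was at 25.6, 51.2 and 41.6 CPM in NC, 42.5, 134 and 23.9 CPM in shTMEM45A set 4, and 153, 217 and 140 CPM in set 2. Set 2 lay above set 4 in all libraries, by 1.35 on the log2 scale (SE 0.29, adjusted p = 0.0055), although the libraries of set 4 differ widely among themselves. RPS2P5, a copy of RPS2, had a log2 change of -0.33 for the mean of both shSHCBP1 sets and of -0.35 for that of both shTMEM45A sets, where RPS2 itself rose by 0.51. Reads of copies and parents cannot be told apart with certainty in these counts.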
